A study of Rattus norvegicus with 6 samples.

Results

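Protocadherins and the giant FAT and Dachsous cadherins were followed in cultured smooth muscle cells of rat vessels, which contract and give arteries their tone. All genes of the deposited count table whose symbol begins with Pcdh were taken, together with Fat1 to Fat4, Dchs1 and Dchs2, which gave 53 of 18631 genes. Of these, 35 belong to the clustered genes (2 Pcdha, 18 Pcdhb and 15 Pcdhg symbols) and 18 do not. The genes were chosen by name, after earlier results of these data had shown a large fall of Pcdh17, so the comparison of the groups is given as a description and nothing is read from the share of these genes that passed the test.

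Protocadherins are single-pass membrane proteins whose extracellular cadherin repeats bind the same protein on a neighbouring cell. The clustered genes lie side by side on one chromosome. In the alpha and gamma clusters each symbol stands for its own first exon, which encodes the extracellular part and is spliced to constant exons shared by the whole cluster, whereas beta genes use a single coding exon. In neurons each cell uses a small random set of these first exons, and a promoter element with the core CGCT, called the conserved sequence element, together with the looping factor CTCF takes part in that choice. FAT1 to FAT4 are very long cadherins that act on cell polarity, growth and actin at the cell edge, and FAT1 is known in the vessel wall as a restraint on smooth muscle growth. FAT4 and Dachsous (DCHS1) bind each other across cell borders.

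Polyadenylated RNA was sequenced in 6 libraries of cultured cells, 3 with the genotype label MIAT knockdown and 3 titled Scr with a wild-type label, called Scr control here. MIAT does not code for protein, and the treatment text names small interfering RNAs and antisense oligonucleotides, 50 nM together, left on the cells for 72 h. That text stands on every library, so what the Scr cells received is not stated, and the rat strain, the sex and the vessel the cells came from are not stated either. Miat itself was not analysed here, and no value for its loss is given. Separate cultures are not stated for the libraries, and p-values therefore measure only the spread between these libraries, which may be technical.

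Total counts ran from 17793811 to 20121161 per library. The labelled cell type was checked against 8 smooth muscle markers, of which Tagln stood at 2998 ± 629 CPM (counts scaled to library size with TMM factors) with knockdown and 3054 ± 375 CPM in controls (SD, n = 3), while Des was near 0 at 0.457 ± 0.309 and 0.480 ± 0.227 CPM. Myh11 and Lmod1 fell, the other 6 did not pass, and the summed smooth muscle markers were 5261 to 7651 CPM in knockdown and 5948 to 7623 CPM in control libraries. Fell and rose refer to an edgeR adjusted p under 0.05 over all tested genes, with the library number as a block. In that fit 11.1% of all tested genes fell and 10.5% rose, and without the block no marker passed. Fibroblast markers moved with the groups: 4 of 5 fell and the list summed to 1428 to 1733 CPM in knockdown against 2017 to 2173 CPM in control libraries. The 3 proliferation markers rose, with sums of 285 to 351 against 232 to 296 CPM. Endothelial markers summed to 4.15 to 5.15 against 5.35 to 9.52 CPM with Cdh5 near 0, Schwann cell markers to 3.11 to 3.99 against 5.55 to 7.06 CPM, macrophage markers to 7.67 to 11.8 against 7.01 to 16.8 CPM with Ptprc near 0, and neuronal markers to 128 to 165 against 138 to 261 CPM with Rbfox3 near 0. Of these, 1 endothelial gene fell and no neuronal, macrophage or Schwann marker passed the test. The part of any of these in the values below was not tested, and in bulk RNA fewer cells of a type and less RNA per cell cannot be told apart.

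The starts of the clustered genes are shown first, because they share sequence. Of the tested members, 28 of 29 clustered and 11 of 12 others (Pcdh17 included) had a log2 fold change below 0, against 51.5% of all tested genes. The direction was thus not particular to the clustered genes. RefSeq (GRCr8) gave a window of 250 bases before to 50 after an annotated start for 47 of the 53 genes. In 14 of the 16 Pcdhb genes with a window the same word of 10 bases, GGTGGCGCTG, was found, searched on both strands, and it holds the CGCT core. Of all 33469 windows of the same length in the RefSeq table, 0.221% held it, as did 0 of the 14 Pcdhg genes and 0 of the 16 non-clustered members with a window. It was chosen as the word shared by most Pcdhb windows, so its frequency there is a description. Windows of 40 bases on the plus strand of rat chromosome 18 are given for 5 Pcdhb genes, 3 that fell (Pcdhb2, Pcdhb3 and Pcdhb4) and 2 that did not pass (Pcdhb7 and Pcdhb14), with the shared word in capitals. The window of Pcdhb16l, which also fell, lacks the word.
Pcdhb2, chr18:29279918-29279957: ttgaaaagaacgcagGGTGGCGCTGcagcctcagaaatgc
Pcdhb3, chr18:29285599-29285638: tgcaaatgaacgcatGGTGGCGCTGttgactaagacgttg
Pcdhb4, chr18:29292206-29292245: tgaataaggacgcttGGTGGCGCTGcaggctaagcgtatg
Pcdhb7, chr18:29328993-29329032: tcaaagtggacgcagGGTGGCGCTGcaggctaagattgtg
Pcdhb14, chr18:29431804-29431843: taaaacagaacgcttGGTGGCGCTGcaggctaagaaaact

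The Pcdhg genes shared another word, GCTGTTCACC, in 7 of 14 windows against 0.120% of all windows and 0 of 16 Pcdhb genes. It too was chosen as the word shared by most windows of its cluster, so its frequency there is a description. In 5 of the 7 it follows directly on CC, and in Pcdhga5 on TC, so that in all of these the core CGCT overlaps its first 3 letters. Windows of 40 bases are given for Pcdhga7 and Pcdhga8, which fell, and for Pcdhga12, which did not pass the test. In Pcdhga1, which also fell, the word lies at the edge of the window.
Pcdhga7, chr18:29794206-29794245: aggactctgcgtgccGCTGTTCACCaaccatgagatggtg
Pcdhga8, chr18:29805001-29805040: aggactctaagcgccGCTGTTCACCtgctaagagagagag
Pcdhga12, chr18:29843863-29843902: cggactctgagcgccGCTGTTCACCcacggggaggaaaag

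The 5 letters CGCTG, which the Pcdhb word holds and which overlap the Pcdhg word where a C comes before it, were found in 14 of 16 Pcdhb, 11 of 14 Pcdhg and 10 of the 16 other members with a window, against 37.0% of all windows, and the 4 letters CGCT alone in 14 of 16 Pcdhb, 11 of 14 Pcdhg and 13 of 16 other members, against 60.9% of all windows. The 14 Pcdhb words began between 229 and 46 bases before the annotated start, 11 of them between 80 and 41 bases before it. For Pcdhb10, which is among the 11, that start lies inside the gene and not at its first base. A match is a stretch of letters and was not measured as a bound site.

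**Figure D1:**
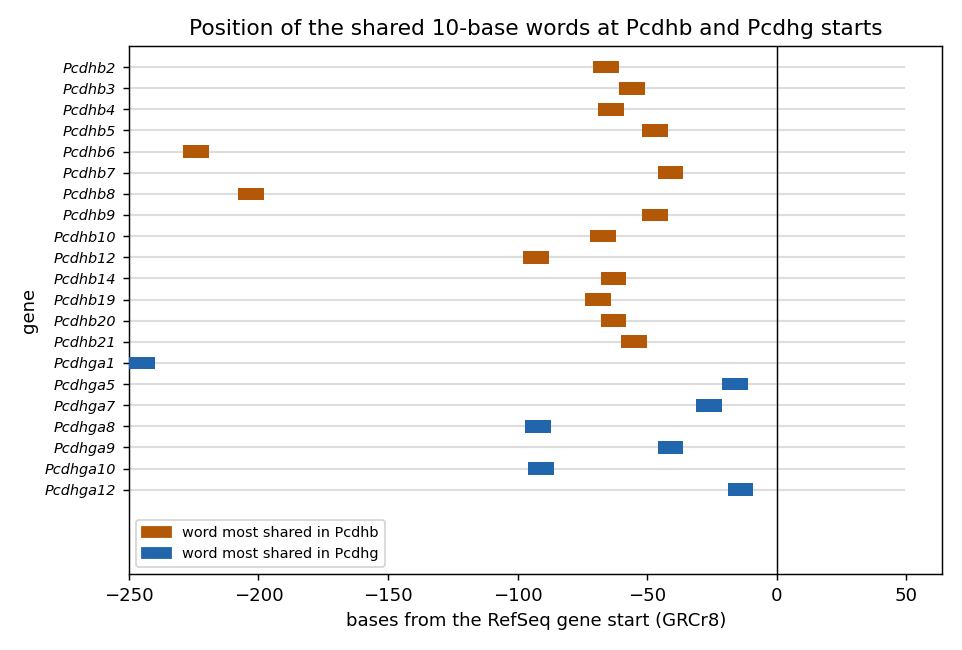
Position of the most shared word of 10 bases in the Pcdhb genes (brown) and in the Pcdhg genes (blue), in bases from the RefSeq start (x axis), one gene per row. For Pcdhb10 this is an annotated start inside the gene. Grey lines are the windows searched. The Pcdhb words of 11 of 14 genes begin between 80 and 41 bases before the start, and the Pcdhg words are more scattered, from 250 to 19 bases before it.

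Of the 53 genes, 41 had enough counts to be tested, 29 clustered and 12 not. The 12 left out never exceeded 20 counts in a library. They were Pcdhac1, Pcdhb6, Pcdhb6l, Pcdhb8, Pcdhb9, Pcdhb12, Pcdh8, Pcdh11x, Pcdh12, Pcdh15, Fat2 and Dchs2. Pcdh12, known from endothelium, had at most 6 counts in a library, and Pcdh15, a hair cell cadherin, at most 2.

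Per kilobase of gene length, Fat1 was by far the most abundant member, at 80.6 ± 4.86 FPKM in the control libraries (SD, n = 3). Pcdhgc3, a C-type gamma gene, followed at 26.2 ± 2.33 FPKM and the FAT4 partner Dchs1 at 13.8 ± 2.89 FPKM. Pcdh7 at 7.36 ± 1.81 and Fat4 at 5.77 ± 2.77 FPKM did not differ beyond their spread. Next came Pcdhgc5 at 2.69 ± 0.430, Pcdh18 at 2.57 ± 0.327, Pcdhb3 at 1.96 ± 1.05 and Pcdh19 at 1.78 ± 0.518 FPKM, again within their spread of each other. Of all other members Pcdh17 had the highest control mean, 1.348 ± 0.970 FPKM.

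In the Pcdhg cluster, Pcdhgc3 took 63.0% to 70.75% of the cluster's summed CPM in every library. In the Pcdhb cluster no gene dominated in this way, and the highest, Pcdhb16l, took 24.0% to 29.3%. The alpha cluster was carried by 1 symbol, Pcdha4, with 97.7% to 100% of the 2 alpha rows. RefSeq lists 14 other alpha symbols as synonyms of Pcdha4, and the length behind its FPKM is 40402 bases, so this row may hold several alpha first exons and its FPKM of 0.765 ± 0.181 is low for its reads. How reads of the shared gamma exons, or of near-identical beta genes, were counted is not given in the sources used here, so values of single clustered genes are uncertain and the sums are given as well.

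**Figure D2:**
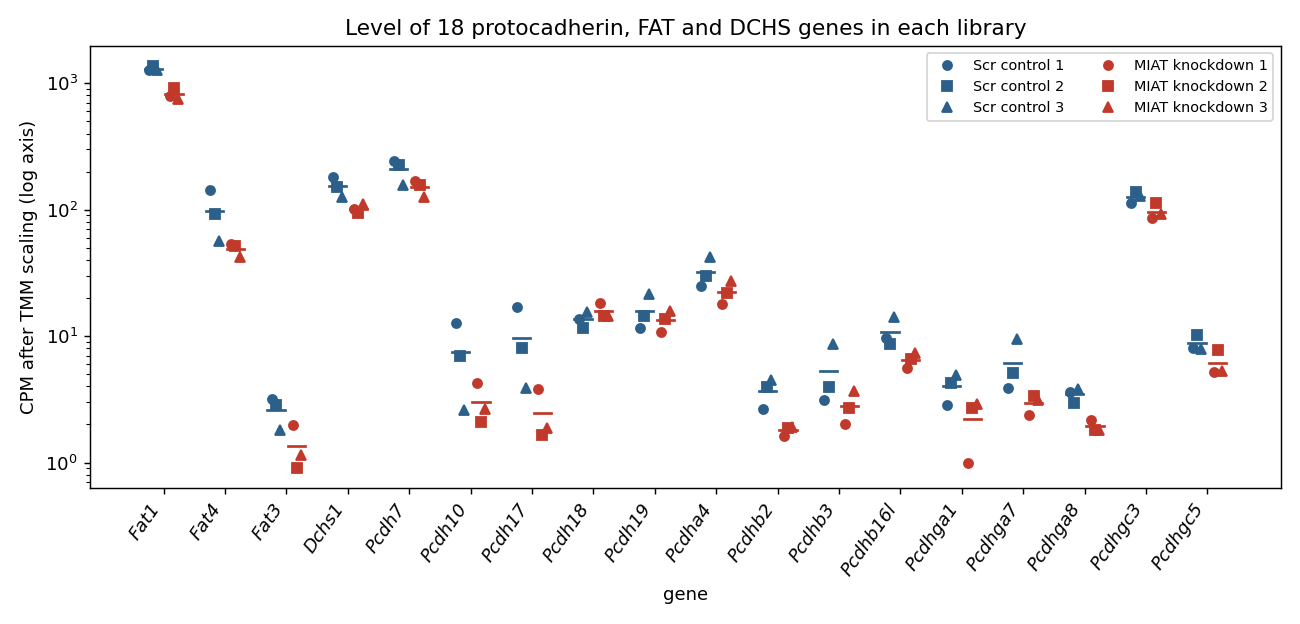
CPM after TMM scaling (y axis, log) of 18 genes in each of 6 libraries; blue marks are Scr control, red marks MIAT knockdown, the marker shape gives the library number and the short lines are group means of 3. Fat1 lies between 751 and 1368 CPM and its groups stand apart. The groups of Fat3, Pcdh7, Pcdh10, Pcdh18, Pcdh19, Pcdha4, Pcdhb3 and Pcdhga1 overlap.

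Nearly all tested members had lower levels with MIAT knockdown than in the Scr controls. In the fit that keeps the library number as a block, 15 of the 40 tested members other than Pcdh17 fell, 0 rose and 25 did not pass, where over all 13423 tested genes 11.1% fell and 10.5% rose (21.6% in either direction). Pcdh17, whose fall led to the choice, is left out of the counts of calls here and below. At an unadjusted p under 0.05, 27 members passed in this fit, all lower, against 36.3% of tested genes in either direction and 18.3% lower. The log2 fold change was below 0 in 38 of 40, against 51.5% of all tested genes. The groups did not overlap, with all knockdown below all control libraries, in 18 of 40 members, against 11.8% of tested genes. The mean of the knockdown libraries was lower in 48 of the 53 rows, filtered rows included. The share of all 18631 genes for this measure is not given here, and the filtered rows rest on at most 20 counts in a library, so nothing is read from it. Members that passed the count filter may owe that to the group in which they are high, so these counts describe the tested members only.

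Without the block, edgeR's quasi-likelihood test called 0 members and 0 of all genes (a background of 0%), with 19 of 40 members at an unadjusted p under 0.05, all of them lower, against 8.76% of tested genes that were lower at that p. Scaling by total counts raised the median of all tested genes by 0.11 on the log2 scale and gave 2832 higher and 819 lower genes with the block, against 1412 and 1486 with TMM, while 14 of 40 members were called lower and 0 higher. The member medians were then -0.54 (clustered) and -0.52 (other), against 0.10 over all tested genes. DESeq2 without the block called 4 of 40 members, Fat1, Fat4, Dchs1 and Pcdhb2, all lower, against 2.47% of tested genes. In this text fell and rose refer to an edgeR adjusted p under 0.05 over all tested genes with the block. The fit without the block was planned as the main test and the block fit as its alternative.

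**Figure D3:**
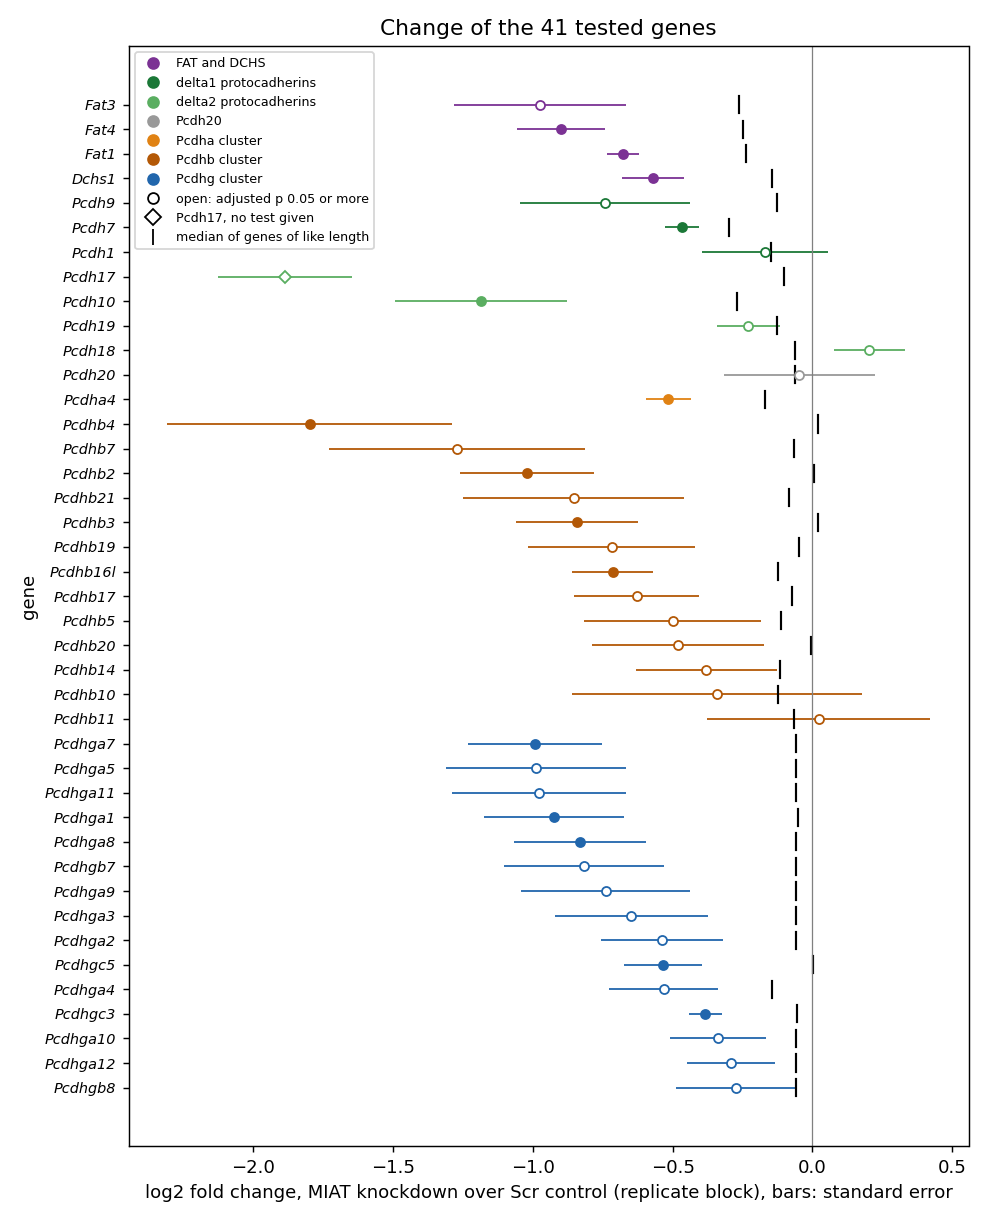
Log2 fold change of MIAT knockdown over Scr control in the block fit (x axis) for the 41 tested members, grouped by colour; bars are standard errors, filled points have an adjusted p under 0.05, the open diamond is Pcdh17, for which no test is given, and black ticks are the median of tested genes of like length. The 39 points left of 0 include all 15 Pcdhg genes, and the 2 points right of 0 are Pcdh18 and Pcdhb11.

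Fat1, the vessel wall's main FAT cadherin, had 789, 914 and 751 CPM in knockdown libraries 1 to 3 and 1278, 1368 and 1267 CPM in control libraries 1 to 3. Each knockdown library lay below each control library. Fat1 fell 1.60-fold (log2 fold change -0.68, standard error 0.058, adjusted p = 0.00102, and 0.104 without the block).

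Fat4, the receptor partner of Dachsous, had 53.2, 52.0 and 42.4 CPM in knockdown and 144, 92.2 and 56.1 CPM in control libraries 1 to 3. The groups did not overlap, but control library 3 lay close to the knockdown libraries, and the difference was widest in the libraries numbered 1. Fat4 fell 1.87-fold (log2 fold change -0.90, standard error 0.156, adjusted p = 0.00689, and 0.168 without the block).

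Dchs1, which encodes the ligand of FAT4, had 101, 93.6 and 112 CPM in knockdown and 180.3, 152 and 126 CPM in control libraries 1 to 3, again with no overlap. Dchs1 fell 1.49-fold (log2 fold change -0.57, standard error 0.111, adjusted p = 0.0102, and 0.118 without the block). Fat3 was far scarcer, at 1.98, 0.912 and 1.14 CPM against 3.17, 2.86 and 1.82 CPM. The groups of Fat3 overlapped by a single library each, and it did not pass (log2 fold change -0.97, standard error 0.307, adjusted p = 0.0537). The calls of Fat4 (log2 fold change -0.93) and Dchs1 (-0.51) ended without the libraries numbered 2.

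The delta protocadherins have no shared constant exons and signal through motifs of their own tails. The delta1 gene Pcdh7 had 169, 157 and 125 CPM in knockdown and 244, 227 and 158 CPM in control libraries 1 to 3. Control library 3 lay within the knockdown range, yet each knockdown library was below the control of its own number. Pcdh7 fell 1.38-fold (log2 fold change -0.47, standard error 0.061, adjusted p = 0.00299, and 0.225 without the block). Pcdh1 and Pcdh9, the other delta1 genes tested, had log2 fold changes of -0.17 and -0.74 and did not pass. Without the libraries numbered 3 Pcdh9 passed (log2 fold change -1.24, adjusted p = 1.8e-07), as did Fat3 (-1.09, 0.00443). That fit has fewer residual degrees of freedom than the 2 of the full block fit, so its p-values are uncertain. With all 6 libraries the adjusted p of Pcdh9 was 0.115.

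Pcdh17, a delta2 protocadherin known from axon growth, had 3.85, 1.66 and 1.87 CPM in knockdown and 17.1, 8.07 and 3.91 CPM in control libraries 1 to 3. The lowest control library stood just above the highest knockdown library. On the log2 scale the difference was -1.89 (standard error 0.240), and as this gene's fall led to the choice of the family no test is given for it. Pcdh10, its delta2 relative, had 4.27, 2.09 and 2.65 CPM against 12.8, 7.01 and 2.62 CPM. Pcdh10 was lower in 2 of 3 pairs and level in the libraries numbered 3. It fell 2.27-fold (log2 fold change -1.19, standard error 0.308, adjusted p = 0.0281, and 0.265 without the block), a call that ended without the libraries numbered 1 (-0.89) or 2 (-0.90).

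Not all delta2 genes went the same way. Pcdh18 had 18.3, 14.5 and 14.3 CPM in knockdown and 13.7, 11.6 and 15.6 CPM in control libraries, with overlapping groups and a log2 fold change of 0.20 (standard error 0.126, adjusted p = 0.282). Without the libraries numbered 3 it passed upward (log2 fold change 0.37, adjusted p = 0.0167), with the same limit of fewer residual degrees of freedom. Pcdh19 had 10.7, 13.6 and 15.8 against 11.7, 14.4 and 21.7 CPM, which also overlapped. Its log2 fold change of -0.23 did not pass (standard error 0.113, adjusted p = 0.179). In the fit without the block it was -0.25, and 0.038 when control library 3 was left out of that fit.

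Every cluster was lower in sum in each knockdown library than in the control of the same number. The alpha rows summed to 18.4, 21.9 and 27.65 CPM in knockdown and 25.3, 29.8 and 42.2 CPM in control libraries 1 to 3, which is 72.5%, 73.7% and 65.5% of the control, with overlapping groups. The beta rows summed to 19.6, 25.5 and 30.9 against 32.6, 34.99 and 57.0 CPM, or 59.9%, 72.8% and 54.2%, with no overlap between the groups. The gamma rows summed to 121, 161 and 135 against 170.3, 197 and 202 CPM, or 70.8%, 81.6% and 66.9%, again with no overlap. Without Pcdhgc3 the gamma rows stood at 61.3%, 81.2% and 56.9% of the control. The libraries numbered 2 showed the smallest difference in all 3 clusters.

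**Figure D4:**
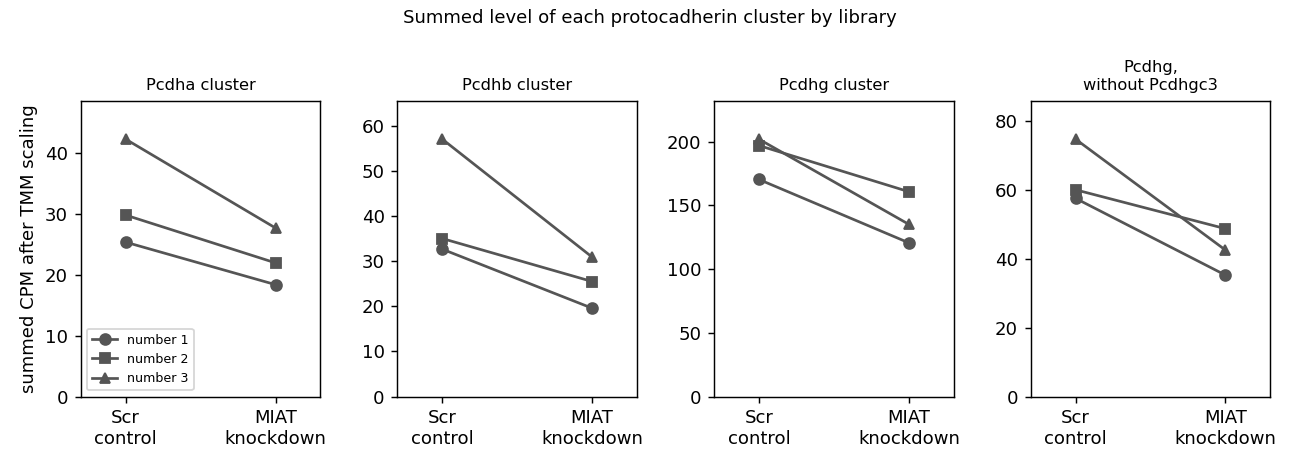
Summed CPM after TMM scaling (y axis, from 0) of each protocadherin cluster in Scr control and MIAT knockdown libraries; lines join libraries of the same number. All lines slope downward, and the control library numbered 3 is the highest in each panel.

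Among clustered genes 10 of 29 tested members fell, 0 rose and 19 did not pass, where 11.1% of all tested genes fell and 10.5% rose, with a median log2 fold change of -0.65 against -0.01 over all tested genes. Pcdha4 had 17.9, 21.9 and 27.4 CPM in knockdown and 25.1, 29.7 and 42.1 CPM in control libraries, overlapping between groups but lower in each pair. It fell 1.43-fold (log2 fold change -0.52, standard error 0.080, adjusted p = 0.00469, and 0.269 without the block).

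The gamma genes were below 0 in all 15 cases, from -0.99 to -0.27, and 5 fell, against 11.1% of all tested genes. As reads of the shared exons may be split between these rows, the 15 cases may not be separate observations. Pcdhgc3 had 85.3, 112 and 92.6 CPM in knockdown and 113, 137 and 127 CPM in control libraries, where knockdown library 2 nearly met control library 1. It fell 1.304-fold (log2 fold change -0.38, standard error 0.058, adjusted p = 0.00433, and 0.175 without the block). The related C-type gene Pcdhgc5, at 5.20, 7.78 and 5.29 against 8.10, 10.3 and 7.92 CPM, fell 1.45-fold with no overlap (adjusted p = 0.0277).

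The other gamma genes that fell were of the A type. Pcdhga7 had 2.39, 3.38 and 3.11 CPM against 3.85, 5.10 and 9.52 CPM and fell 1.99-fold (adjusted p = 0.0219). Pcdhga8 had 2.185, 1.82 and 1.82 CPM against 3.63, 2.97 and 3.80 CPM and fell 1.78-fold (adjusted p = 0.0374). Pcdhga1 had 0.988, 2.68 and 2.905 CPM against 2.83, 4.26 and 4.92 CPM, overlapped by a small margin and fell 1.90-fold (adjusted p = 0.0320). The remaining 10 gamma genes, Pcdhga2 to Pcdhga5, Pcdhga9 to Pcdhga12, Pcdhgb7 and Pcdhgb8, did not pass.

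In the beta cluster 4 of 13 tested genes fell, 0 rose and 9 did not pass (11.1% and 10.5% of all tested genes fell and rose), with log2 fold changes from -1.80 to 0.02. Pcdhb16l was the highest in CPM but, being a long row, not in FPKM. It had 5.57, 6.54 and 7.42 CPM in knockdown and 9.575, 8.69 and 14.1 CPM in control libraries. It fell 1.64-fold with no overlap (log2 fold change -0.71, standard error 0.145, adjusted p = 0.0117). Pcdhb2, at 1.61, 1.88 and 1.92 against 2.66, 3.98 and 4.495 CPM, fell 2.03-fold with no overlap (adjusted p = 0.0200). Pcdhb3, at 2.03, 2.68 and 3.68 against 3.12, 3.98 and 8.67 CPM, overlapped and fell 1.79-fold (adjusted p = 0.0275).

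Pcdhb4 also fell, but on 3 to 5 counts per knockdown and 10 to 20 per control library (adjusted p = 0.0375), so its size is poorly fixed. The nearest to no change was Pcdhb11 at 11 to 18 against 11 to 15 counts. Of the 10 tested beta genes with the shared word at their start 3 fell and their median was -0.78. The 1 tested beta gene with a window and no such word, Pcdhb16l, fell by 0.71, and the 2 without a RefSeq window had a median of -0.30. With so few genes lacking the word, genes with and without it were not compared.

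Calls of single clustered genes were thin. Without the libraries numbered 2 those of Pcdhb2 (log2 fold change -0.99), Pcdhb3 (-0.96), Pcdhb4 (-1.76), Pcdhga1 (-1.08), Pcdhga7 (-1.19), Pcdhga8 (-0.89) and Pcdhgc5 (-0.61) ended, without those numbered 1 that of Pcdhb3 (-0.93), Pcdhb4 (-1.97), Pcdhga1 (-0.71), Pcdhga8 (-0.88) and Pcdhgc5 (-0.48), and without those numbered 3 that of Pcdhb3 (-0.59) and Pcdhb4 (-1.65). Calls were gained by Pcdhgb7 without those numbered 2 (-1.26) and by Pcdhb7 (-1.49), Pcdhb17 (-0.84) and Pcdhgb7 (-0.60) without those numbered 3. DESeq2 with the block did not call Pcdhb2, Pcdhb3, Pcdhga1, Pcdhga8 or Pcdhgc5, and it gave no adjusted p for Pcdhb4.

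Because FAT genes and Pcdh7 are among the longest transcripts, the members were set beside genes of like length. Over all other tested genes the median log2 fold change ran from 0.11 at up to 1500 bases to -0.24 above 12000 bases. For the 12 non-clustered members the median was -0.62 (-0.57 without Pcdh17), and 5 of the 11 other than Pcdh17 fell. Among 4889 other tested genes from 20% shorter to 25% longer than one of them it was -0.10, with 18.7% fallen and 6.44% risen. That pool joins the windows of all 12 members, so its more numerous shorter genes weigh most and it does not follow the members' lengths. It held 2510 genes near Pcdh18 (5105 bases), of which 14.1% fell, and 275 near Fat4 (16395 bases), of which 34.2% fell. For the clustered members, at a median of -0.65, the 9235 genes of like length had a median of -0.04, with 13.1% fallen and 9.19% risen.

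Gene by gene the distance differed. Fat1, with a gene length of 15604 bases, stood at -0.68, where 351 genes of like length had a median of -0.24 and 32.5% of them fell. Fat4 stood at -0.90 against -0.25, Dchs1 at -0.57 against -0.15 and Pcdh17 at -1.89 against -0.10. Pcdh7, at 27587 bases, was nearer to its peers, at -0.47 against -0.30 for 55 genes of which 38.2% fell. Pcdhgc3 stood at -0.38 against -0.05.

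When a smooth curve on gene length was taken out of each library, 11 of the 15 calls held, where 7.73% of all tested genes were called lower and 9.54% higher. Pcdh7 (log2 fold change -0.14, adjusted p = 0.171), Pcdha4 (-0.13, 0.327), Pcdh10 (-0.93, 0.0538) and Pcdhga8 (-0.79, 0.0507) no longer passed. Fat1 (-0.45, 0.00420), Fat4 (-0.66, 0.0140) and Dchs1 (-0.40, 0.0295) did. Pcdha4, at 40402 bases, had only 6 other tested genes of like length, so its corrected value is uncertain. The median became -0.42 for the non-clustered and -0.58 for the clustered members.

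**Figure D5:**
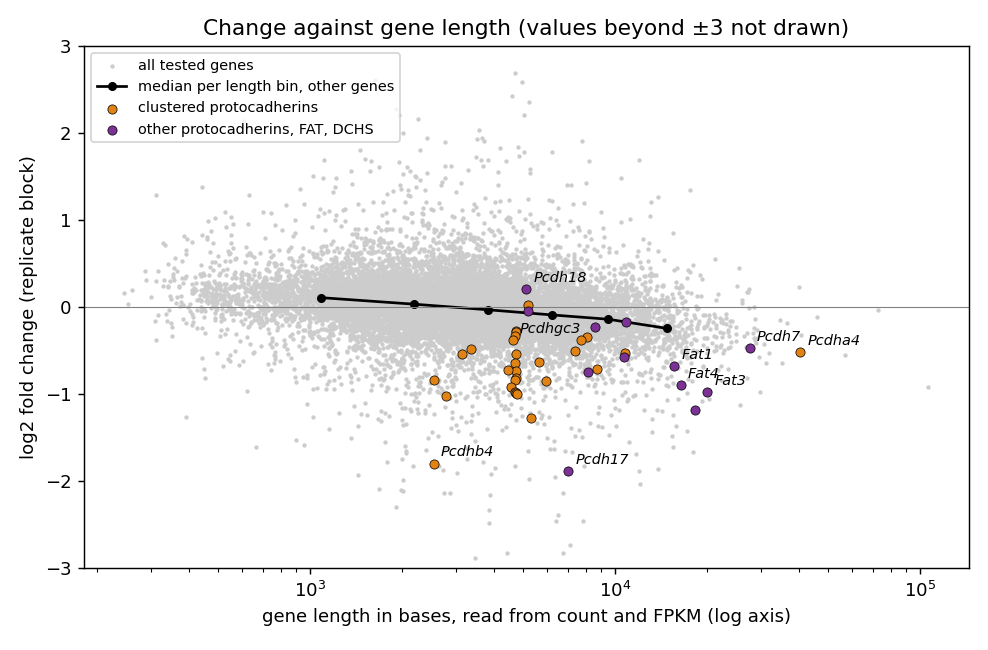
Log2 fold change in the block fit (y axis) against gene length (x axis, log); grey points are all tested genes, the black line joins medians of other genes in 6 length bins, orange points are clustered protocadherins and purple points the other members. The line slopes from 0.11 to -0.24, and most members lie below it.

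Lists of genes that work with these cadherins are set against the 10.5% of all tested genes that rose and the 11.1% that fell. Of 19 tested planar polarity and FAT/DCHS partners 5 rose (26.3%), 4 fell (21.1%) and 10 did not pass, with a median of 0.04. With the length correction 7 passed upward, Vangl1 and Celsr3 among them, and 2 downward, against 9.54% higher and 7.73% lower of all tested genes in that fit. Prickle2 (-0.34 to -0.10, adjusted p = 0.346) and Fzd6 (-0.25 to -0.18, 0.0873) no longer passed in it. Fjx1, the Golgi kinase that tunes FAT and Dachsous binding, rose from 26.7 ± 12.9 to 39.55 ± 11.0 CPM and Ajuba, a LIM protein of the Hippo pathway, from 53.65 ± 4.225 to 75.3 ± 10.8 CPM. The Dishevelled genes split, as Dvl2 rose by 0.40 and Dvl3 fell by 0.39 on the log2 scale. Of 17 actin-side partners, such as the WAVE complex that protocadherin tails recruit, 0 rose, 2 fell (11.8%, close to the share of all tested genes) and 15 did not pass, with a median of -0.09. Wasf2, a WAVE subunit gene, went from 49.2 ± 3.23 to 35.5 ± 2.40 CPM and the kinase gene Ptk2b from 56.1 ± 16.97 to 41.25 ± 10.9 CPM.

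None of 18 regulators of protocadherin promoters, among them Ctcf, the cohesin genes and the DNA methyltransferases, passed the test, and their median was 0.0032. At an unadjusted p under 0.05 there were 4 with the block and 0 without it, against 36.3% and 19.2% of all tested genes. With the length correction Dnmt3a (0.26 to 0.50, adjusted p = 0.00980), Dnmt1 (0.17 to 0.26, 0.0180) and Wapl (0.15 to 0.26, 0.01555) passed upward, against 9.54% of all tested genes. The regulator with the highest CPM, Trim28, stood at 224 ± 16.4 against 227 ± 12.7 CPM.

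The classical and related cadherins, which bind catenins and hold adherens junctions, had 8 of 17 members tested, of which 0 rose, 3 fell (37.5%, against 11.1% of all tested genes) and 5 did not pass (median -0.31). Cdh2, or N-cadherin, the main junction cadherin of these cells, fell from 375 ± 34.6 to 289 ± 37.1 CPM, Cdh13 from 74.95 ± 28.2 to 46.1 ± 12.7 CPM and Cdh23 from 6.18 ± 1.89 to 3.82 ± 0.667 CPM. With the length correction the call of Cdh23, at 19400 bases, ended (-0.67 to -0.40, adjusted p = 0.158). Of 6 tested catenins 3 fell, against 11.1% of all tested genes, and 0 rose. Jup, or plakoglobin, fell by a log2 fold change of 0.65, Ctnnd2 by 0.65 and Ctnnd1, or p120 catenin, by 0.25, a call that ended with the length correction (-0.18, adjusted p = 0.0930). Without the block 0 genes of these 5 lists passed.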

How the data were processed

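Per the labels, polyadenylated RNA from smooth muscle cells of rat vessels was read in 3 MIAT knockdown and 3 Scr control libraries. The authors deposited raw counts per gene symbol and FPKM values. Every FPKM above 0 (100%) equals the count divided by 1 length per gene and by the library total (relative tolerance 1e-06), which gave the lengths. The aligner, counting program, strand setting and build: not given in the sources used here. Counts were scaled by TMM and filtered with filterByExpr (13423 genes) in edgeR 4.0.16 under R 4.3.3, and tested with its quasi-likelihood test with p-values adjusted after Benjamini and Hochberg across the 13423 genes (threshold 0.05), first without a block and then with the library number as a block. Other tools were DESeq2 1.42.0 and limma 3.58.1. The script was tested on simulated data.

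Libraries of the same number deviated together after removal of group means (correlations across genes 0.68, 0.52 and 0.58, against -0.56 to -0.05 for other matches), so the numbers were taken to pair the libraries. The labels give the numbers but not what they stand for. The biological coefficient of variation was 19.7% without and 8.09% with the block, on 4 and 2 residual degrees of freedom. Block fits that left out a pair had fewer than 2, so calls gained in them are uncertain.

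The members and lists were chosen with earlier results of these data known. Values in every library are given for all tested FAT and DCHS genes, Pcdh17, members past the threshold with a mean of at least 1 CPM and the 3 most abundant clustered and other protocadherins by FPKM; of other lists up to 4 called genes of at least 5 CPM are named. Pcdhb4, Pcdhb7, Pcdhb11, Pcdhb14 and Pcdhga12 were singled out after their values or sequences were seen. Genes of like length are from 20% shorter to 25% longer than a member. Of the symbols, 52 of 53 matched RefSeq (GRCr8), which served for names and promoter sequences. Alternatives were other tools, scalings, filters, a length correction (loess, span 0.5) and leaving out libraries.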

Additional observations from a re-analysis of the deposited data

How the results depend on the processing

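The replicate block took the number of genes called from 0 to 2898 and of members from 0 to 16. For all genes and for members the counts were 699 and 5 in DESeq2, 1595 and 10 in DESeq2 with the block, 3651 and 15 with total counts and the block (2832 higher and 819 lower of all genes, against 1412 and 1486), 3128 and 18 with no low-count filter and the block, and 2317 and 12 with the length correction and the block. With the block and without a pair of same-numbered libraries they ranged from 736 to 4124 (1195 without number 1) and from 7 to 20. Each of these member counts other than 0 includes Pcdh17, for which no test is given. In all of these settings every called member was lower, with the exception of Pcdh18 without the libraries numbered 3. Counts were 0 in limma-voom, in limma on log2 FPKM with either pseudocount and, without the block, in edgeR with other scalings, filters, the length correction and each library left out.

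The clustered median, -0.65, was -0.18 on log2(FPKM + 1) and -0.44 on log2(FPKM + 0.1), scales that shrink low genes. With 1 library left out it lay between -0.83 and -0.47, and with the block and a pair left out between -0.86 and -0.59. The median of the other members, -0.63, was -0.24 and -0.44 on these FPKM scales, -0.83 with no low-count filter, and -0.42 with the length correction both without and with the block. The medians of genes of like length stayed between -0.05 and -0.03 (clustered) and between -0.11 and -0.06 (other) with windows of 1.1 and 2 times the length. Pcdh19 turned from -0.25 to 0.038 without control library 3, and the cause was not tested. Many clustered genes had fewer than 100 counts per library, which limits the precision of each.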

Other observations

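The libraries also differed by number, in a pattern the comparison of the groups does not hold. Pcdh20, a protocadherin gene with no cluster, had 5 counts in knockdown library 1 and 1 in control library 1, but 92 and 94 in knockdown libraries 2 and 3 and 96 and 102 in control libraries 2 and 3. Its level was thus near 0 in both libraries numbered 1 and alike in the other 4. The number term of the block fit in edgeR, a test chosen after seeing the data, gave an adjusted p of 0.000525 for Pcdh20. With the group difference held apart, 11 of 41 members passed this test, against 18.8% of all tested genes.

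Several members with lower levels in the knockdown libraries also varied by number. Pcdh17 had 74, 31 and 36 counts with knockdown (numbers 1 to 3) against 302, 144 and 73 in the controls, highest in number 1 of both groups. Pcdh1, a delta1 gene, had 95, 45 and 24 against 94, 46 and 30 counts, so it followed the numbers and hardly the groups (number term adjusted p = 0.00575, group term 0.629). Pcdha4 and Pcdhb3 went the opposite way and were highest in number 3, with 528 and 786 counts for Pcdha4 and 71 and 162 for Pcdhb3 in knockdown and control library 3. Pcdh7, Pcdh10, Pcdh19, Fat4, Pcdhb19 and Pcdhgc3 also passed. What the numbers stand for is not stated in the labels.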
